A study of Mus musculus with 6 samples.

Results

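The genes that build cholesterol and fatty acids were followed in CD8 T cells sorted from mouse pancreas. The set held 35 genes, chosen by function: enzymes of the mevalonate and sterol steps, the SREBP control system, enzymes of fatty acid synthesis, and genes of cholesterol efflux. The platform annotation names probes, and each gene was read from the brightest probe, by its mean on the 6 arrays, among those that carry its symbol alone. Such a probe was found for 33 of the 35 genes, out of 19929 genes named on the array. Acat2 and Nr1h2 were not analysed here. Of the 33 genes, 31 were bright enough to be tested, among 13950 genes tested in all, and Idi1 and Lss were not. The cells were AI4αβ CD8 T cells, which carry a transgenic antigen receptor against a beta cell antigen, and they were sorted from pancreas with an antibody to CD8 and the MimA2/H-2Db tetramer. In the AI4 group the mice had developed type 1 diabetes. In the Rip-B7xAI4 group they were resistant to it, and they also carried B7x, an inhibitory ligand of the B7 family, as a transgene under the rat insulin promoter, which is active in beta cells. All mice were on the C57BL/6.H2g7/g7 background, and pancreata were pooled before sorting. The sources used here do not give the age or sex of the mice or how many were pooled. The labels call the 3 arrays of a group biological replicates, and their small number sets how precise each value is. B7x and freedom from diabetes go together in this design, so their effects cannot be told apart.

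Animal cells make cholesterol from acetyl-CoA through mevalonate, farnesyl diphosphate, squalene and lanosterol, and they make fatty acids from the same precursor through malonyl-CoA. Transcription of most of these enzymes is driven by the SREBP factors, which SCAP carries from the endoplasmic reticulum to the Golgi for activation when sterols are low, and which the INSIG proteins hold back when sterols are high. Sterol excess instead activates the LXR receptors, which turn on the efflux pumps encoded by Abca1 and Abcg1. CD8 T cells that are stimulated through their antigen receptor switch this program on, because dividing cells need new membrane.

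The defining T cell genes were bright on all 6 arrays, with Cd3d between 10.19 and 11.53 and Cd8a between 9.21 and 10.89 on the log2 scale. Among 10 tested T cell markers, the difference between Rip-B7xAI4 and AI4 was positive for 5 and negative for 5, and 0 passed an adjusted p of 0.05 in limma. It was -1.001 ± 0.39 for Cd8b1, whose unadjusted p in limma was under 0.05, and -0.69 ± 0.36 for Cd8a, both with overlap. Cd3e was higher on all Rip-B7xAI4 arrays than on all AI4 arrays, with a difference of 0.88 ± 0.41 (all SE). Array medians lay between 5.94 and 6.10. Markers of myeloid cells differed between arrays: the mean of 21 such genes was 5.85 to 6.40 in AI4, 5.99 in Rip-B7xAI4 replicate 2 and 8.59 in both Rip-B7xAI4 replicates 1 and 3. All 20 tested myeloid markers had a positive difference. The mean of 8 markers of adipocytes, which make fatty acids in quantity, ranged from 5.47 to 6.01 over the AI4 arrays and from 5.45 to 5.71 over the Rip-B7xAI4 arrays, and 0 of 5 tested had an unadjusted p under 0.05 in limma. Among the 8, the untested Adipoq was at 3.97 to 4.67 and Plin1 at 6.62 to 7.06, and Fabp4 reached 7.04 in Rip-B7xAI4 replicate 1. The difference was positive for 2 of the 5 tested and negative for 3. Retn was lower without overlap in Rip-B7xAI4 (1 of 5 tested, 20%, against 17.9% of all genes without overlap). The part of such cells in the results was not tested. In bulk RNA, fewer cells of a type and less RNA per cell cannot be told apart.

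The promoter sequences of 4 of these genes are shown as background, and no result below depends on them. Acly and Elovl6 had the smallest p-values of the set, and Insig1 had the largest difference among the SREBP control genes. Hmgcs1 held the only match to a sterol regulatory element. Each run is the 250 bases before the RefSeq gene start on build GRCm38.p6, written 5′ to 3′ on the strand of the gene. Acly lies at chr11:100528001-100528250 on the minus strand, Elovl6 at chr3:129532136-129532385 on the plus strand, Insig1 at chr5:28071162-28071411 on the plus strand and Hmgcs1 at chr13:119690101-119690350 on the plus strand. Capitals mark matches on either strand to the sterol regulatory element TCACNCCAC, the E-box CACGTG, the CCAAT box, whose letters are CCAAT, and the GC box, whose letters are GGGCGG. On the opposite strand a CCAAT box reads ATTGG and a GC box reads CCGCCC.
Acly: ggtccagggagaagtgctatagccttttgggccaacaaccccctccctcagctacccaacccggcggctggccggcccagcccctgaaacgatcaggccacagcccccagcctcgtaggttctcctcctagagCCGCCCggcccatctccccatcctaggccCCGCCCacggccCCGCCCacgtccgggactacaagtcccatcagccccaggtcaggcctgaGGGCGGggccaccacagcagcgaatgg
Elovl6: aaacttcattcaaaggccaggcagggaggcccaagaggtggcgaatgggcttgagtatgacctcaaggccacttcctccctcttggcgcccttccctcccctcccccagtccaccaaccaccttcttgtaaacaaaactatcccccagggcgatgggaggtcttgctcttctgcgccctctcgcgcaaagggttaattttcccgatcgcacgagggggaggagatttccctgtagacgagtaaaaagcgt
Insig1: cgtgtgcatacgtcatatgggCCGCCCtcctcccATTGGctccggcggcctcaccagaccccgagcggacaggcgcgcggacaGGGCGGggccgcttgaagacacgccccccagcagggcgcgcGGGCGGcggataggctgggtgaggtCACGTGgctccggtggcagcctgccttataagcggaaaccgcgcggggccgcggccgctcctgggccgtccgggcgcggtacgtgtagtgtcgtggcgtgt
Hmgcs1: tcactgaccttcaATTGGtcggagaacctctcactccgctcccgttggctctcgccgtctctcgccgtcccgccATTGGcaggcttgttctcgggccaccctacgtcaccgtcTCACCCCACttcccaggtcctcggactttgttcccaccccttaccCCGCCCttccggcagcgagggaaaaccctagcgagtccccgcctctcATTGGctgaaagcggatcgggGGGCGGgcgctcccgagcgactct

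Hmgcs1 carried the match TCACCCCAC, which starts 137 bases before the gene start, together with 3 CCAAT boxes and 2 GC boxes. Insig1 carried an E-box 101 bases before its start, 1 CCAAT box and 3 GC boxes. The Acly window held 4 GC boxes, and none of these letters were found in the Elovl6 window. Promoter windows were at hand for 27 of the 35 genes. A CCAAT box stood in 19 of these 27 (70.4%), against 37.5% of 27025 genes, and a GC box in 22 (81.5%), against 35.4%. The E-box was in 6 (22.2% against 6.86%) and the sterol regulatory element in 1 (3.70% against 1.22%). These counts describe letters in a window and are no evidence of binding.

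As a set, the cholesterol and fatty acid synthesis genes did not separate the groups. Of the 31 tested genes, 0 passed an adjusted p of 0.05 in limma, where p was adjusted over all 13950 genes tested, and the lowest adjusted p was 0.504. Over all genes, a single one passed (1 of 13950, 0.00717%), the chemokine gene Ccl3, so that few genes of any kind could be called with these arrays. At an unadjusted p under 0.05 in limma, 1 gene of the set was higher in Rip-B7xAI4 (Acly) and 1 was lower (Elovl6). That is 2 of 31 (6.45%), against 8.73% of all genes tested, with 5.56% higher and 3.17% lower. For 2 of the 31 genes (6.45%), Elovl6 and Srebf1, the 2 groups did not overlap, against 17.9% of all genes, and both were lower in Rip-B7xAI4, as were 11.9% of all genes. Both shares were no larger than those over all genes.

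The median difference of the 31 genes, Rip-B7xAI4 minus AI4, was -0.05 on the log2 scale, and that of all genes tested was -0.10. Differences were positive for 13 genes and negative for 18, against 39% and 61% of all genes tested, and when each array was centred on its median the split was 17 positive and 14 negative, and 46.1% of all genes were then positive. Of the 31 genes, 0 differed by more than 1, against 5.51% of all genes, 16 differed by less than 0.2, and the range ran from -0.68 for Elovl6 to 0.89 for Acly. The 95% interval of the difference lay between -1 and 1 for 18 of the 31 genes. For the other 13 genes a change of 1 on the log2 scale, in at least 1 direction, lay inside the interval. The sign of the difference turned for 14 of the 31 genes when some single array was left out, and for the other 17 it stayed the same without any 1 array.

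**Figure D1:**
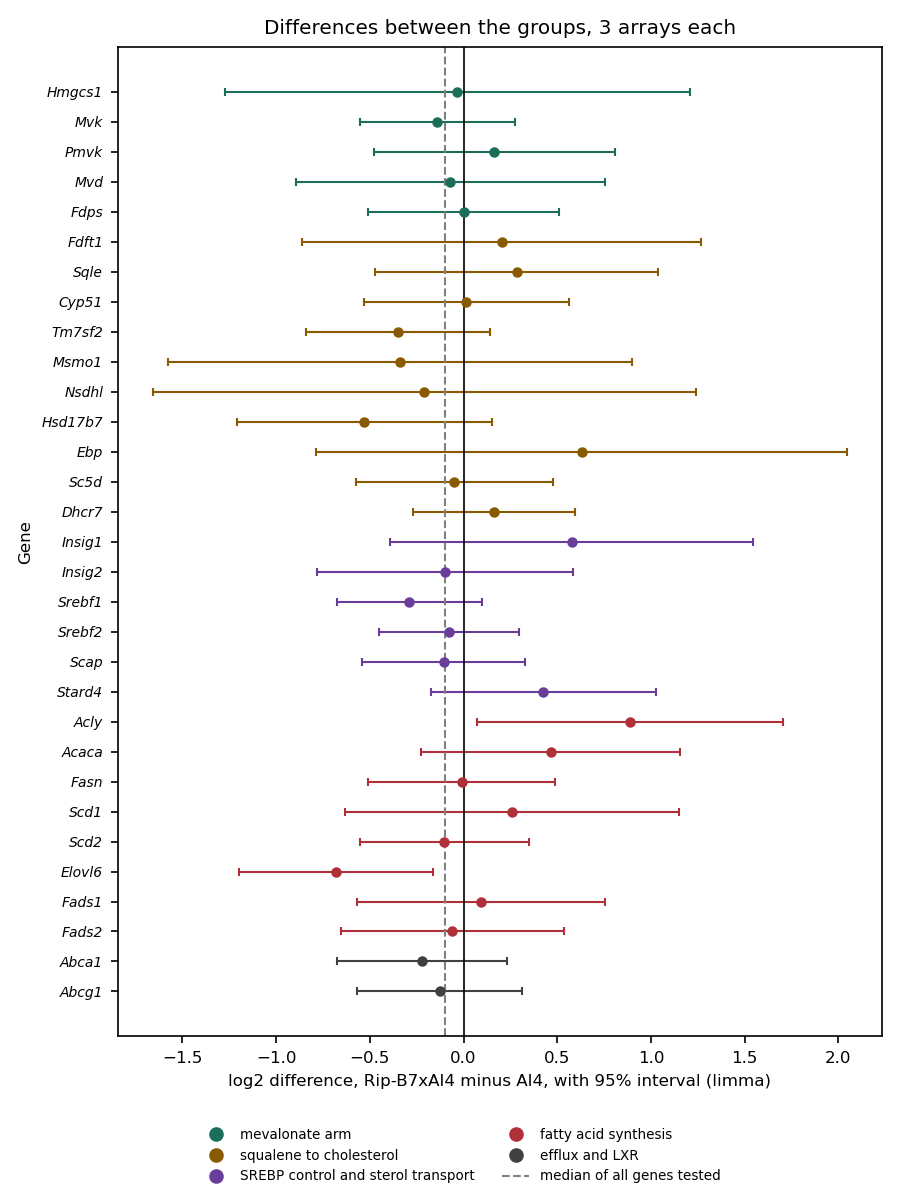
The log2 difference (Rip-B7xAI4 minus AI4, horizontal axis) is shown for the 31 tested genes, coloured by role, with limma's 95% interval from 3 arrays per group; the dashed line marks the median of all genes tested, -0.10. Only the intervals of Acly (0.07 to 1.70) and Elovl6 (-1.20 to -0.16) leave out 0, before any adjustment for the number of genes.

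The mevalonate arm turns acetyl-CoA into the isoprenoid units of sterols. Its 5 tested genes had differences between -0.14 and 0.17. Mvk, mevalonate kinase, was at 6.86, 6.82 and 6.76 in AI4 and at 6.85, 6.45 and 6.72 in Rip-B7xAI4. The difference was -0.14 ± 0.17 (SE), and the groups overlapped. It was -0.36 without both arrays in which myeloid markers were high. That setting, here and below, left only Rip-B7xAI4 replicate 2 in its group, so no spread within that group entered the SE. Fdps, which makes farnesyl diphosphate, differed by 0.00 ± 0.21 (SE), as the AI4 mean was 7.17 ± 0.22 and the Rip-B7xAI4 mean 7.18 ± 0.27 (both SD, n = 3). Pmvk (phosphomevalonate kinase) and Mvd (mevalonate diphosphate decarboxylase) differed by 0.17 ± 0.27 and -0.07 ± 0.34 (SE).

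Hmgcs1, the cytosolic synthase that makes the precursor of mevalonate, varied within each group instead of between them. It was at 5.43, 5.62 and 7.16 in AI4 and at 6.72, 5.69 and 5.70 in Rip-B7xAI4. A single array of each group, AI4 replicate 3 and Rip-B7xAI4 replicate 1, stood about 1 log2 unit or more above the rest, and the difference was -0.03 ± 0.52 (SE). It was -0.38 without Rip-B7xAI4 replicate 1 and 0.51 without AI4 replicate 3. Idi1, the isomerase of isopentenyl diphosphate, was too dim to be tested, at 4.24, 4.01 and 4.30 in AI4 and at 6.13, 4.80 and 4.26 in Rip-B7xAI4. Its difference of 0.88 rested on Rip-B7xAI4 replicate 1, without which it was 0.34. A further Idi1 probe also had its highest value there, 5.90 against 3.45 to 4.46 on the other 5 arrays.

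Genes of the steps from squalene to cholesterol had 5 positive and 5 negative differences among 10 tested. Ebp, the sterol isomerase, had the largest one, but its 3 arrays were spread widely in both groups. It was at 5.66, 7.25 and 5.52 in AI4 and at 6.73, 7.66 and 5.94 in Rip-B7xAI4. The difference was 0.63 ± 0.59 (SE), and the groups overlapped. It was 0.19 without Rip-B7xAI4 replicate 2 and 1.18 without AI4 replicate 2. It was 1.52 ± 0.77 (SE) without both arrays in which myeloid markers were high. With a covariate for the myeloid marker level it was 1.57 ± 0.62 (SE), and its unadjusted p in limma was then under 0.05.

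Hsd17b7, a sterol ketoreductase, had the most negative difference of these steps. It was at 7.16, 6.56 and 6.09 in AI4 and at 5.96, 6.09 and 6.18 in Rip-B7xAI4. The 3 Rip-B7xAI4 values lay close together near the lowest AI4 array, and the difference was -0.53 ± 0.28 (SE; adjusted p = 0.582 by limma). Without AI4 replicate 1, the highest array, it was -0.25. Without AI4 replicate 3, the lowest of that group, it was -0.79. Its unadjusted p in limma was then under 0.05, as for 11.2% of all genes. Tm7sf2, a sterol reductase, differed by -0.35 ± 0.21 and Msmo1, a sterol methyl oxidase, by -0.34 ± 0.52 (SE). Sqle, squalene epoxidase and a rate-limiting enzyme of the pathway, differed by 0.28 ± 0.32 and Fdft1, squalene synthase, by 0.20 ± 0.45 (SE). Fdft1 was at 6.59, 7.53 and 5.71 in Rip-B7xAI4. Its difference was -0.26 without replicate 2 of this group, 0.65 without replicate 3 and 1.12 without both arrays in which myeloid markers were high. A further Fdft1 probe did not share this spread. It was at 6.17, 6.22 and 5.90 in AI4 and at 6.18, 6.47 and 6.11 in Rip-B7xAI4, a difference of 0.16.

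Several of these enzymes spread over more than 1 log2 unit within a group. Nsdhl, a sterol dehydrogenase, ran from 5.92 to 8.19 in Rip-B7xAI4 and from 6.41 to 7.35 in AI4, and its difference was -0.21 ± 0.61 (SE). Without Rip-B7xAI4 replicate 1, its groups did not overlap and its unadjusted p was under 0.05 in limma, with Rip-B7xAI4 lower. In that fit 6 of 30 tested genes of the set did not overlap, a share that was not taken over all genes. Such a p was found for 2 of the 30 (6.67%, against 5.46% of all genes), and the lowest adjusted p in limma was 0.848. The lanosterol demethylase gene Cyp51, by contrast, stayed between 5.64 and 6.25 on all arrays and differed by 0.01 ± 0.23 (SE). Sc5d (sterol desaturase) and Dhcr7 (the last reductase of the pathway) differed by -0.05 ± 0.22 and 0.16 ± 0.18 (SE). Lss, lanosterol synthase, was not tested and was at 4.89 to 5.67 over the 6 arrays.

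The genes for the SREBP factors and their escort varied little between arrays. Srebf2, which encodes the SREBP of sterol synthesis, was at 7.50, 7.63 and 7.59 in AI4 and at 7.37, 7.54 and 7.58 in Rip-B7xAI4. The difference was -0.08 ± 0.16 (SE), with a 95% interval from -0.45 to 0.29. Scap, the escort of SREBP, differed by -0.11 ± 0.18 (SE). Insig2, which retains SCAP in the endoplasmic reticulum, differed by -0.10 ± 0.29 (SE).

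Srebf1, which encodes the SREBP of fatty acid synthesis, was at 7.10, 6.81 and 6.88 in AI4 and at 6.69, 6.64 and 6.59 in Rip-B7xAI4. All 3 Rip-B7xAI4 arrays lay below all 3 AI4 arrays, by a gap smaller than the spread within AI4. The difference was -0.29 ± 0.16 (SE) and did not pass (adjusted p = 0.583 by limma). It was -0.22 when each array was centred on its median, and the groups then overlapped.

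Insig1, itself a target of SREBP, was at 6.03, 7.06 and 7.004 in AI4 and at 7.99, 6.88 and 6.96 in Rip-B7xAI4. Only Rip-B7xAI4 replicate 1 lay above the AI4 arrays, and AI4 replicate 1 was the lowest of all 6. The difference of 0.58 ± 0.40 (SE) was 0.22 without Rip-B7xAI4 replicate 1 and 0.24 without AI4 replicate 1. It was 0.18 without both arrays in which myeloid markers were high. Stard4, a sterol carrier protein, was at 6.58, 6.72 and 6.86 in AI4 and at 7.55, 7.21 and 6.68 in Rip-B7xAI4. Its difference was 0.43 ± 0.25 (SE), with replicate 3 of Rip-B7xAI4 inside the AI4 range. Without that array it was 0.66 ± 0.21 (SE), with an unadjusted p under 0.05 in limma, and without replicate 1 it was 0.22.

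Fatty acid synthesis held the genes with the largest difference in each direction. Acly, ATP-citrate lyase, makes the cytosolic acetyl-CoA from which both fatty acids and sterols are built. It was at 6.23, 6.36 and 7.12 in AI4 and at 7.99, 6.997 and 7.38 in Rip-B7xAI4. AI4 replicate 3 overlapped with the lowest Rip-B7xAI4 array. The difference was 0.89 ± 0.34 (SE), with an unadjusted p = 0.0368 and an adjusted p = 0.553 by limma. The unadjusted p was above 0.05 without AI4 replicate 1 (limma's adjusted p = 0.718) and without AI4 replicate 2 (0.736). The same held without the first Rip-B7xAI4 array (0.853) and without the third (0.566). It was under 0.05 without AI4 replicate 3, where the difference was 1.16, and without Rip-B7xAI4 replicate 2, where it was 1.12. Over all 16 alternative settings the difference lay between 0.43 and 1.16. The difference was 0.62 without Rip-B7xAI4 replicate 1, 0.43 ± 0.44 (SE) without both arrays in which myeloid markers were high, and 0.48 ± 0.43 (SE) with the mean of these markers as a covariate. Acly was thus highest in the same 2 arrays as the myeloid markers, and their part in the difference was not tested.

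Elovl6 encodes the elongase that extends palmitate to stearate. It was at 7.66, 7.35 and 7.88 in AI4 and at 7.17, 6.997 and 6.69 in Rip-B7xAI4. All 3 Rip-B7xAI4 arrays lay below all 3 AI4 arrays. The difference was -0.68 ± 0.22 (SE), with an unadjusted p = 0.0173 and an adjusted p = 0.504 by limma. The unadjusted p was above 0.05 without the third array of either group. The difference was -0.63 without both arrays in which myeloid markers were high. With the mean of these markers as a covariate it was -0.68 ± 0.32 (SE), with an unadjusted p above 0.05 in limma. Over all 16 alternative settings it lay between -0.82 and -0.52.

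**Figure D2:**
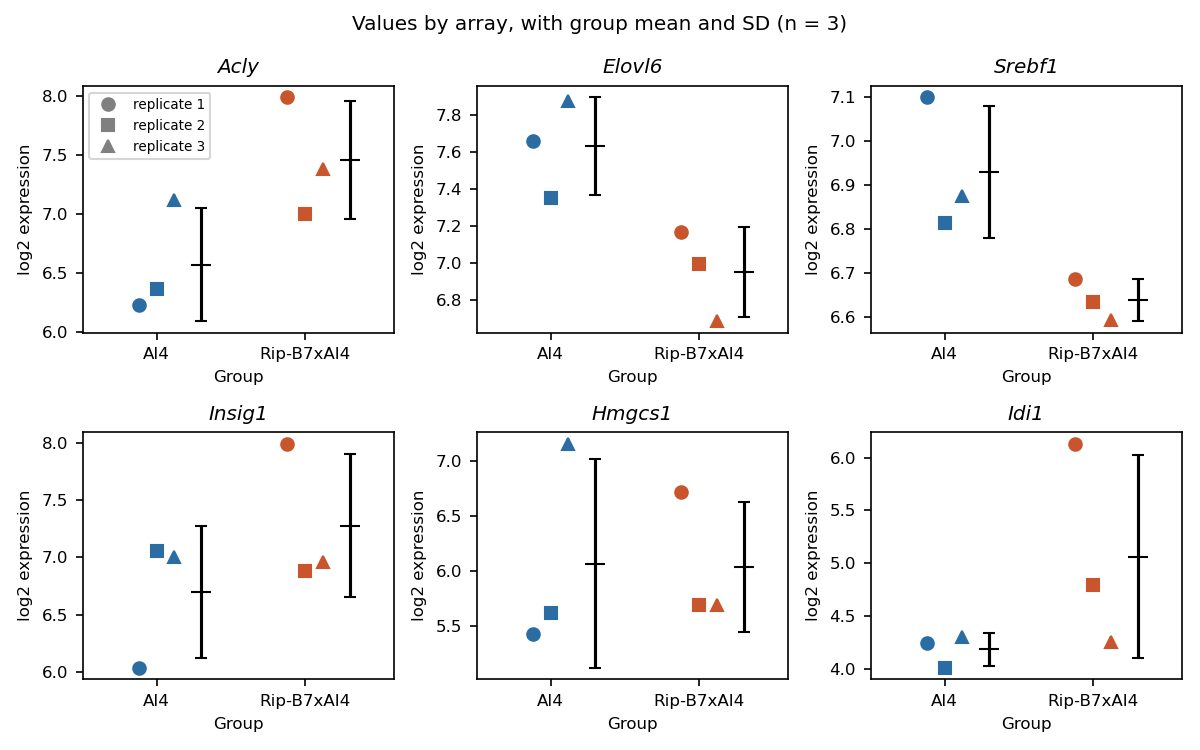
Log2 expression (vertical axis, with its own range in each panel) is shown for 6 genes by group; points are arrays, shaped by replicate number, and bars give the group mean and SD (n = 3). In the deposited values Elovl6 and Srebf1 separate the groups, Srebf1 no longer so when arrays are centred on their medians, while Acly, Insig1, Hmgcs1 and Idi1 overlap and reach high values in Rip-B7xAI4 replicate 1.

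The other enzymes of fatty acid synthesis differed less. Fasn, fatty acid synthase, was at 7.40, 6.89 and 6.88 in AI4 and at 7.22, 6.89 and 7.04 in Rip-B7xAI4. Its difference was -0.01 ± 0.21 (SE), with a 95% interval from -0.51 to 0.49. Acaca, the carboxylase that makes malonyl-CoA, was at 5.61, 5.43 and 5.85 in AI4 and at 6.68, 5.67 and 5.94 in Rip-B7xAI4. Its difference of 0.47 ± 0.29 (SE) was 0.17 without replicate 1, and 0.04 without both arrays in which myeloid markers were high. In Rip-B7xAI4 replicate 1 a further Acaca probe was also at its highest, 6.95. The stearoyl-CoA desaturase genes Scd1 and Scd2 differed by 0.26 ± 0.37 and -0.10 ± 0.19 (SE), and the fatty acid desaturase genes Fads1 and Fads2 by 0.09 ± 0.28 and -0.06 ± 0.25 (SE). Scd1 was at 6.15, 4.87 and 5.98 in Rip-B7xAI4. Without replicate 2 of this group its difference was 0.66 ± 0.26 (SE), its groups did not overlap and its unadjusted p in limma was under 0.05. In that fit 3 of the 31 genes had such a p (9.68%, against 7.79% of all genes). The Scd1 difference was -0.54, and the gene too dim to be tested, without both arrays in which myeloid markers were high. Scd1 and Scd2 are close paralogs that may share probe signal, so their separate values are uncertain.

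The efflux pumps of the LXR pathway showed small differences. Abca1 was at 5.94, 6.05 and 6.28 in AI4 and at 6.06, 5.64 and 5.91 in Rip-B7xAI4, a difference of -0.22 ± 0.19 (SE). Abcg1 was at 7.19, 7.35 and 7.49 in AI4 and at 7.01, 7.22 and 7.42 in Rip-B7xAI4, a difference of -0.13 ± 0.18 (SE). The groups overlapped for both. The Abca1 difference was -0.45 without both arrays in which myeloid markers were high. Macrophages also express these pumps, and the part of myeloid RNA in their values was not tested.

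By array, the mean level of the set was highest in Rip-B7xAI4 replicate 1. The mean of the 33 genes stood at 6.38, 6.42 and 6.46 in AI4 and at 6.71, 6.39 and 6.30 in Rip-B7xAI4, so that the highest and the lowest array belonged to the same group. The SD of this mean was 0.04 in AI4 and 0.21 in Rip-B7xAI4 (n = 3). The mevalonate arm was at 6.78 in Rip-B7xAI4 replicate 1 and between 6.08 and 6.34 on the other 5 arrays. This mean of 6 genes includes the dim, untested Idi1, at 6.13 there, so part of the gap is that gene's. Within the arm, Hmgcs1 was highest in AI4 replicate 3, Mvk in AI4 replicate 1 and Pmvk in Rip-B7xAI4 replicate 2, while Mvd and Fdps were highest in Rip-B7xAI4 replicate 1. The SREBP control genes were at 7.40 there and between 6.89 and 7.14 elsewhere. The fatty acid synthesis genes were at 6.52 there and between 6.10 and 6.38 elsewhere. The genes from squalene to cholesterol were at 6.47 there, close to the 6.37 of replicate 2. The efflux genes were not highest there, at 6.54 against 6.89 in AI4 replicate 3.

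For 8 of the 31 tested genes (25.8%) this array had the highest value of the 6, against 20.6% of all genes tested. For 5 of the 31 it had the lowest, against 30.8% of all genes. The share of genes at their highest was thus near that over all genes, and the share at their lowest was smaller. The 8 genes were Mvd, Fdps, Nsdhl, Insig1, Stard4, Acly, Acaca and Scd1. The untested Idi1 stood 1.81 above the mean of the other 5 arrays there, Nsdhl 1.54, Insig1 1.21 and Acly 1.17. This array also had the widest spread of values over all probes, with an interquartile range of 2.13 against 1.71 to 1.95 on the others. Myeloid markers were as high in Rip-B7xAI4 replicate 3 as in this array. In replicate 3 the mean of the mevalonate arm was 6.08, close to the 6.125 of AI4 replicate 1. The part of myeloid RNA in these array levels was not tested.

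**Figure D3:**
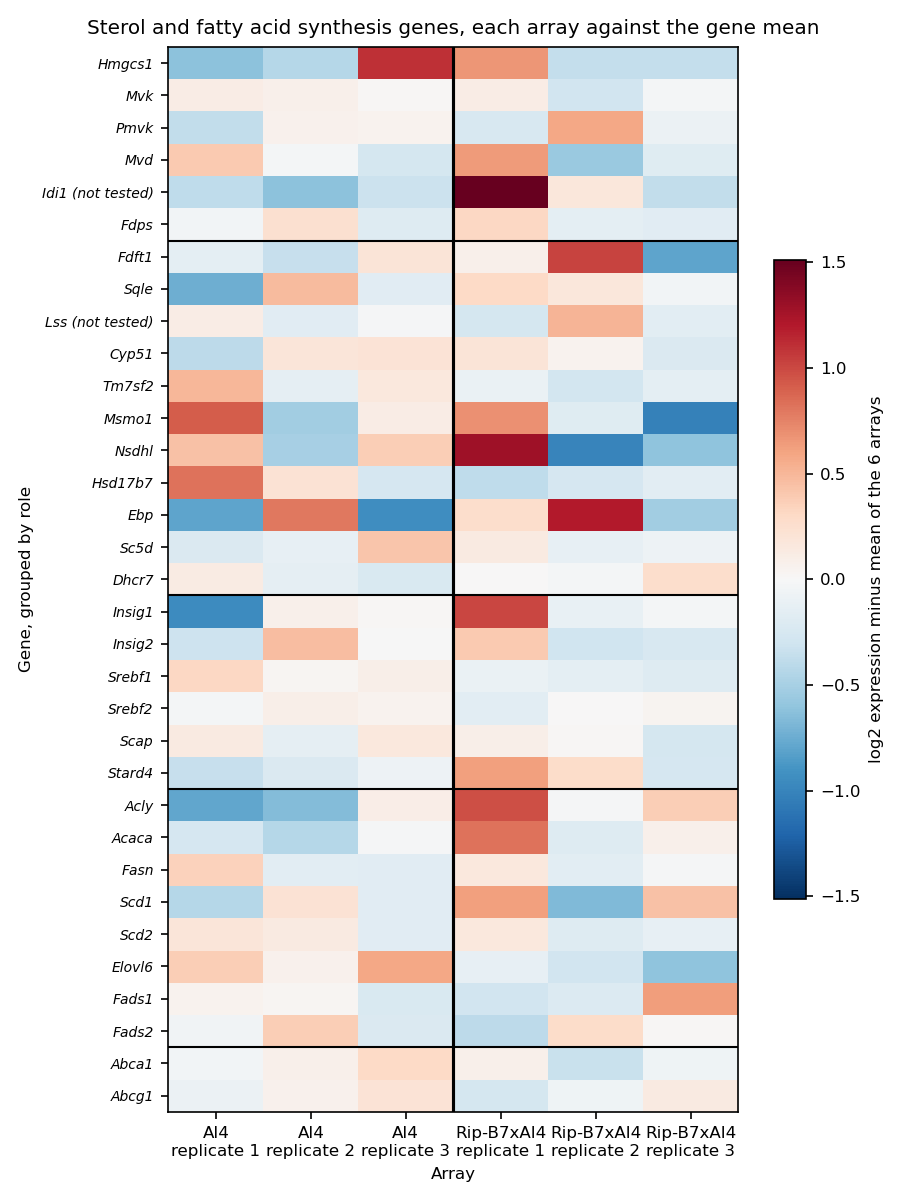
Each cell gives the log2 expression of a gene (rows, grouped by role, with lines between the mevalonate arm, squalene to cholesterol, SREBP control, fatty acid synthesis and efflux genes) on an array (columns) minus its mean over the 6 arrays, from blue (below) to red (above). The deepest red lies in Rip-B7xAI4 replicate 1, where Idi1, Nsdhl, Insig1 and Acly lie 1.17 to 1.81 above the mean of the other arrays.

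**Figure D4:**
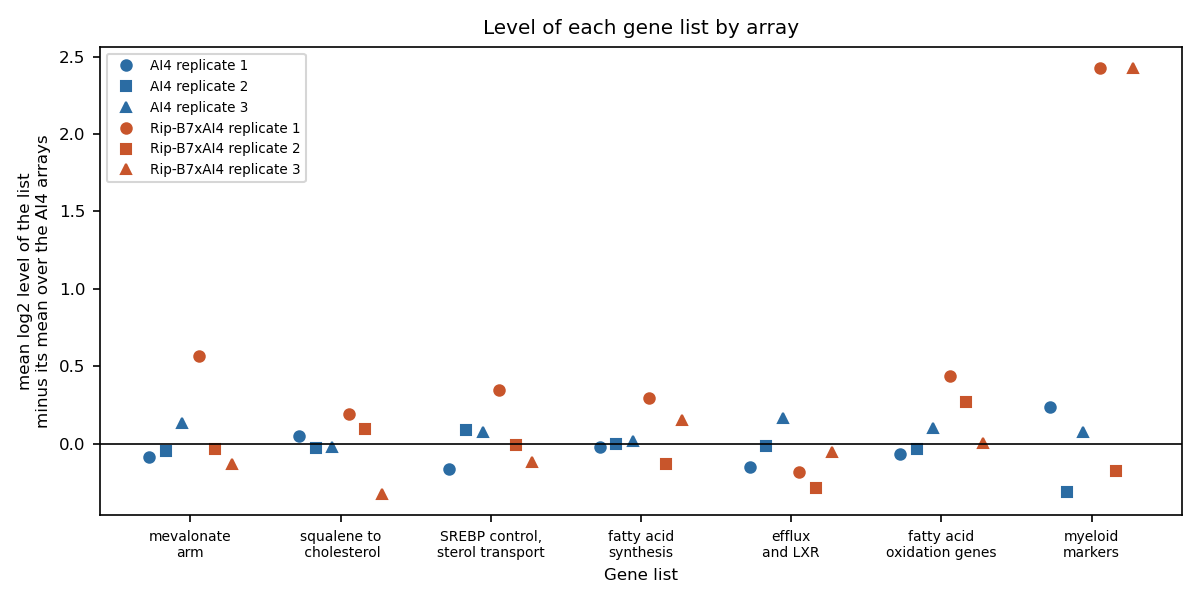
The mean log2 level of each gene list on each array is shown relative to the list's mean over the AI4 arrays; colour gives the group and shape the replicate number. Myeloid markers are high in both Rip-B7xAI4 replicates 1 and 3 (8.59 against an AI4 mean of 6.16). The mean of the mevalonate arm, which includes the untested Idi1, is highest in replicate 1.

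Other genes of the same pathways were read from lists written out by function, and 0 passed in any of them at an adjusted p of 0.05 in limma. Of 10 further tested genes of sterol and prenyl synthesis, 1 had an unadjusted p under 0.05 in limma and was higher, and 0 were lower (10%, against 8.73% of all genes). This gene, Dhdds, a subunit of the enzyme that makes dolichol, was at 5.93, 5.59 and 6.57 in AI4 and at 7.50, 7.22 and 6.22 in Rip-B7xAI4. The groups overlapped, the difference was 0.95 ± 0.40 (SE), and the unadjusted p stayed under 0.05 in 6 of 16 alternative settings. Fntb and Fnta, the subunits of protein farnesyltransferase, differed by -0.49 ± 0.22 and 0.49 ± 0.36 (SE), and by -0.16 and 0.97 without both arrays in which myeloid markers were high. The median of this list was -0.16.

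Of 18 further tested genes of SREBP processing, sterol uptake and storage, 3 were higher at an unadjusted p under 0.05 in limma and 0 were lower (16.7%, against 8.73% of all genes). Lipa, the lysosomal lipase that frees cholesterol from its esters, was at 5.89, 6.20 and 7.10 in AI4 and at 8.27, 7.64 and 7.98 in Rip-B7xAI4. The groups did not overlap, and the difference was 1.57 ± 0.35 (SE; adjusted p = 0.314 by limma). Without both arrays in which myeloid markers were high, which leaves 1 Rip-B7xAI4 array, it was 1.25. With the myeloid marker level as a covariate, Lipa alone of the 18 genes had an unadjusted p under 0.05 in limma, as had 4.09% of all genes. Erlin1, which takes part in the degradation of sterol-regulated proteins of the endoplasmic reticulum, differed by 0.90 ± 0.31 and Gramd1b, a sterol transfer protein, by 0.56 ± 0.19 (SE). Without those arrays Erlin1 differed by 0.59 and Gramd1b by 0.59. The list median was 0.02.

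Of 22 further tested genes of fatty acid synthesis, activation and elongation, 3 were higher at an unadjusted p under 0.05 in limma and 0 were lower (13.6%, against 8.73% of all genes). Fabp5, a fatty acid binding protein, was at 5.89, 5.65 and 6.04 in AI4 and at 6.59, 7.30 and 6.69 in Rip-B7xAI4. The groups did not overlap, and the difference was 1.00 ± 0.24 (SE; adjusted p = 0.382 by limma). Lpin1, a phosphatidate phosphatase, was at 5.28, 6.26 and 6.11 in AI4 and at 7.01, 7.53 and 6.89 in Rip-B7xAI4, a difference of 1.26 ± 0.32 (SE; adjusted p = 0.410). For both genes the highest array was Rip-B7xAI4 replicate 2, where myeloid markers were at the level of AI4. Acsl5, an acyl-CoA synthetase, differed by 0.71 ± 0.29 (SE). Without both arrays in which myeloid markers were high, which leaves replicate 2 alone in Rip-B7xAI4, Fabp5 differed by 1.44, Lpin1 by 1.65 and Acsl5 by 1.12. The list median was 0.01.

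Of 9 further tested LXR pathway genes, 1 was lower and 0 were higher at an unadjusted p under 0.05 in limma (11.1%, against 8.73% of all genes). This was Abcg4, a sterol transporter, at 6.87, 6.64 and 6.69 in AI4 and at 6.21, 6.44 and 6.24 in Rip-B7xAI4. The groups did not overlap, and the difference was -0.44 ± 0.17 (SE). It was -0.30 without both arrays in which myeloid markers were high. Apoe, an LXR target of macrophages, was at 8.12, 8.22 and 8.81 in AI4 and at 11.31, 7.99 and 10.49 in Rip-B7xAI4. It was high only in the arrays with high myeloid markers, and its difference of 1.55 ± 0.80 (SE) became -0.39 without them. Rxrb, a partner of LXR, differed by -0.20 ± 0.15 (SE).

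Fatty acid oxidation, the opposite route, had a median difference of 0.16 over 20 tested genes, with 1 higher and 1 lower at an unadjusted p under 0.05 in limma (10%, against 8.73% of all genes). Etfb, which passes electrons from fatty acid oxidation to the respiratory chain, was at 7.34, 8.24 and 7.53 in AI4 and at 9.45, 9.59 and 9.69 in Rip-B7xAI4. The difference of 1.88 ± 0.26 (SE; adjusted p = 0.157 by limma) was larger than that of any of the 31 tested synthesis and efflux genes. Over 16 alternative settings it lay between 1.58 and 2.15, and its lowest adjusted p was 0.0682. Hadh, a dehydrogenase of the same route, differed by -0.41 ± 0.17 and Hadha, a subunit of the trifunctional protein, by 1.25 ± 0.53 (SE). Over 16 alternative settings the Hadh difference lay between -0.57 and -0.33, and its unadjusted p in limma reached 0.164.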

How the data were processed

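Expression was measured on 6 single-colour Affymetrix arrays, 3 per group, each with total RNA from sorted cells, and the sample titles gave the groups. The authors deposited 1 normalized log2 value per probe and array; the scale was read from the range of the values, and Affymetrix Expression Console is named in the submitters' processing notes without a version or algorithm. Arrays carry no counts, and no measure of background was used, so a dim probe's distance from it is unknown. Probes with 1 gene symbol (21760 of 28325) were used, the brightest by mean for each gene. The 30% of genes with the lowest mean over all arrays were not tested (limit 5.471). Log2 values were fitted with limma 3.58.1 in R 4.3.3 with a term for the group, two-sided, with Benjamini-Hochberg adjustment over all genes tested. The fit was tested on simulated data. The genes and lists were chosen with earlier results of these data known. Every gene of the set is accounted for. Values by array are given for those with an unadjusted p under 0.05, those whose groups do not overlap and the extremes of each role, and for other genes chosen after their values were seen. Up to 3 genes by smallest p were named in each other list. Alternatives were a block for the replicate number, fits without single arrays, other normalizations, filters, probe summaries and variance models, and a myeloid covariate. The alternative for linear values did not apply.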

Additional observations from a re-analysis of the deposited data

How the results depend on the processing

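Of 16 alternative settings, all kept 0 genes of the set past an adjusted p of 0.05 in limma, and the median difference stayed between -0.15 and 0.02. The number of genes of the set with an unadjusted p under 0.05 was 2, and 1 to 3 when an array was left out. In those fits the share of the set was 3.23% to 9.68%, against 5.46% to 11.2% of all genes. An unadjusted p under 0.05 for Nsdhl, Stard4, Scd1 or Hsd17b7 came from these fits. With the myeloid covariate the number was 1 (Ebp), or 3.23% against 4.09% of all genes. The number of genes past the adjusted limit in the whole table was 1, and 0 to 23 when an array was left out. It was 0 without both Rip-B7xAI4 replicates 1 and 3, 38 with array weights and 0 with the myeloid covariate. Samples with the same replicate number did not deviate together (correlations of 0.06, 0.00 and -0.18). With the replicate number as a block, 0 genes passed in the whole table (771 higher and 222 lower at an unadjusted p under 0.05, against 776 and 442 without it). Of the set, 3 genes (9.68%, against 7.12% of all genes) then had an unadjusted p under 0.05, namely Acly, Elovl6 and Ebp. The SE of Ebp fell from 0.59 to 0.25. Apoe reversed, to -0.39 without both Rip-B7xAI4 replicates 1 and 3 and to -0.14 with the covariate; myeloid markers were high in those arrays. The causes of this and the other shifts were not tested. Among all genes with an unadjusted p under 0.05, the higher share was 63.7%, 75% with median centring and 54.1% after quantile normalization. Leaving out both Rip-B7xAI4 arrays assumes that the remaining array varies like the AI4 arrays.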
